A study of Homo sapiens with 2 samples.

Results

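The miR-30 family was examined in the small RNA of K562 and its drug-resistant variant K562/ADM. Its rows were found by name: the prefix, asterisk, arm and copy suffix were dropped from each name, and the rows left as miR-30a, miR-30b, miR-30c, miR-30d or miR-30e were kept. These were 12 of the 934 names in the table. K562 is a line of human chronic myelogenous leukemia cells, which were sequenced untreated. K562/ADM is a variant of it that had been selected stepwise for growth in adriamycin (ADM), an anthracycline drug, and was maintained at 1000 ng/mL. There was 1 library of each line, so that no replicate check was possible and the comparison is between these libraries. Whether K562/ADM was a single clone is not stated in the labels or methods. K562/ADM carries long selection as well as the drug itself, and their effects cannot be told apart in this design.

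The K562 library held 7677738 reads of mature miRs and the K562/ADM library 6895193. Of the markers of the red cell lineage, miR-451 had 30470 reads in the parental library and 19738 in the resistant one, miR-486-5p 15723 and 10404, and miR-144 5564 and 6216. Of the blood cell markers, miR-142-3p had 351692 and 507475 reads, miR-142-5p 10380 and 9588, and miR-223 1712 and 1246. Markers of other tissues were not all near 0. The epithelial miR-141 had 893 and 743 reads, miR-200c 58 and 63, and miR-205 1 and 0. MiR-9, which is best known from neural cells, had 7976 and 17882 reads, whereas the neural miR-124 had 1 and 2. The muscle miR-1 had 10 and 22 reads, miR-133a and miR-206 each had 0 and 1, and the liver miR-122 had 4 in each library. The part of other cell types in the results was not tested.

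A miR is a short RNA that guides a silencing complex to partly complementary messenger RNAs. Its hairpin precursor yields a 5' and a 3' strand, of which the guide strand is usually kept and the passenger strand, marked by an asterisk, is usually degraded. The seed, bases 2 to 8 of the mature strand, is the main part that pairs with a target, so that strands with 1 seed are expected to share many targets. The miR-30 family is a conserved vertebrate family with hairpins at 3 loci, and it is known for roles in cell differentiation, in restraint of the epithelial to mesenchymal transition and in autophagy.

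The 5' strands are shown because the pool they form is what the libraries divide differently, and because the likeness of their letters limits how well reads can be told apart. The sequences are from RefSeq (build GRCh38.p14), 5' to 3', with the seed in capitals. MiR-30e lies at chr1:40754371-40754392 on the plus strand, miR-30c at chr1:40757300-40757322 (plus strand) and at chr6:71377003-71377025 (minus strand), and miR-30a at chr6:71403595-71403616 on the minus strand. MiR-30b and miR-30d are named only, as the RefSeq table used held no entry for them.
miR-30e: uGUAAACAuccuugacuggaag
miR-30c: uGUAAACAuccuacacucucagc
miR-30a: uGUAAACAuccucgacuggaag
MiR-30a and miR-30e differ by 1 substitution, C13U, counted from 1 at the 5' end of miR-30a with the base of miR-30a given first. MiR-30c differs from each of them at 5 positions and is 23 bases long against 22.

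The 3' strands are shown because they do not carry the family seed.
miR-30e*: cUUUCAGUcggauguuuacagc
miR-30a*: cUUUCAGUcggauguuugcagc
miR-30c-1*: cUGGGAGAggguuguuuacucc
These lie in the same build at chr1:40754413-40754434 (plus strand), chr6:71403554-71403575 (minus strand) and chr1:40757339-40757360 (plus strand). MiR-30e* and miR-30a* share a seed, and they differ by 1 substitution, G18A, with the base of miR-30a* first. MiR-30c-1* has another seed. No other mature strand of the RefSeq table used had the seed of the 5' strands shown. That table held no entry for miR-30b or miR-30d, so it cannot show whether further strands carry this seed.

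The family comes from 6 hairpins. On GRCh37, MIR30E and MIR30C1 lie 2.84 kb apart on chromosome 1 in introns of NFYC, which encodes a subunit of the transcription factor NF-Y, on the same strand. MIR30C2 and MIR30A lie 26.5 kb apart on chromosome 6 within LINC00472, a lncRNA gene on the same strand. MIR30A falls in an intron of it and MIR30C2 overlaps an annotated exon. MIR30B and MIR30D lie 4.27 kb apart on chromosome 8 in introns of an annotated lncRNA gene. MIR30C1 and MIR30C2 give the same mature 5' strand, so that reads of miR-30c cannot be divided between chromosomes 1 and 6. The 3' strand of MIR30C2, miR-30c-2*, was not among the names in the table.

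The family was abundant in both libraries, and miR-30e and miR-30d made up 86.6% of it in K562 and 89.8% in K562/ADM, counted in reads. MiR-30e, from chromosome 1, had 149049 reads in the parental library and 89163 in the resistant one, at ranks 8 and 11 among all names. MiR-30d, from chromosome 8, had 102100 and 99956 reads, at ranks 13 and 6. Of the reads of the 5' strands alone, these miRs together held 94.0% in K562 and 94.3% in K562/ADM. The order of the pair was therefore reversed between the libraries, with miR-30e ahead in K562 and miR-30d ahead in K562/ADM.

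The other 5' strands were far below these. MiR-30c went from 10181 reads in the parental line to 6436. MiR-30b had 5725 and 4956 reads. MiR-30a, the only 5' strand that comes from chromosome 6 alone, had 127 and 73 reads. Differences in read number between miRs also depend on how well each sequence is ligated and amplified, so that the order of the miRs within a library is an order of reads and not of molecules.

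Of the 3' strands, miR-30e* alone was abundant, with 22634 reads in the parental library against 9913. It stood at ranks 3 and 4 among the 292 names with an asterisk and had more reads than miR-30c or miR-30b in both libraries. MiR-30b* had 117 and 60 reads, miR-30c-1* 105 and 67, miR-30d* 87 and 65, and miR-30a* 10 and 9. A further pair of names was spelled mir. Mir-30e* had 7 and 5 reads, and mir-30c-1* had 3 against 0, and a count of 0 allows up to 3. The sources used here do not say what the asterisk marks in these 2 names, and they were left out of the strands below.

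**Figure D1:**
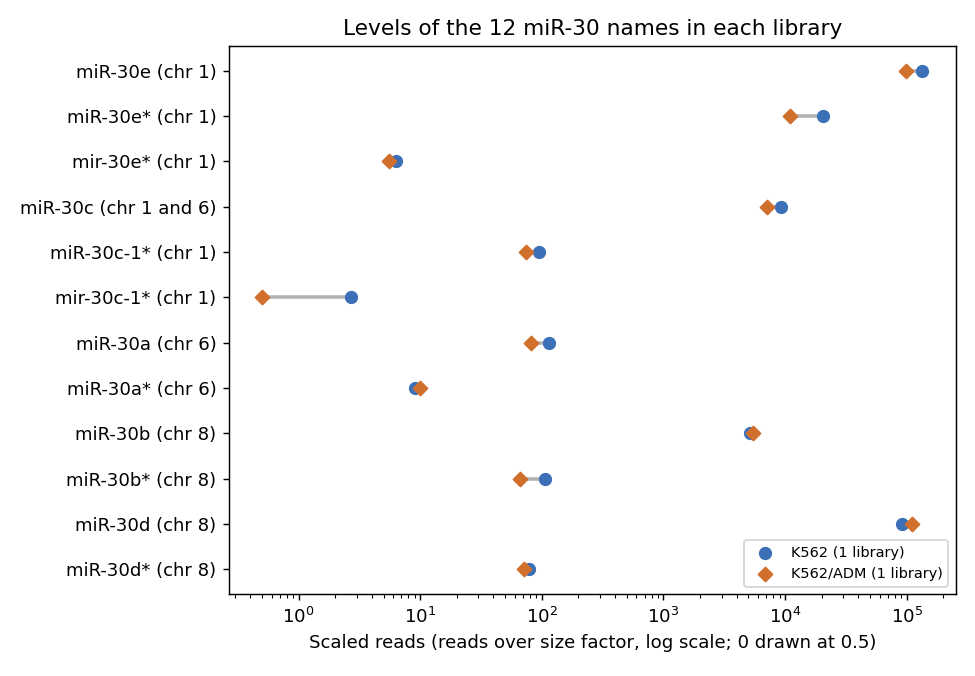
Scaled reads, that is reads over size factor (x axis, log scale, 0 drawn at 0.5) for the 12 miR-30 names (y axis, with the chromosome of the hairpin) in K562 (circles) and K562/ADM (diamonds), 1 library each. MiR-30e and miR-30d stand highest in both libraries, while miR-30e lies lower and miR-30d higher in K562/ADM under this scaling.

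To set the libraries side by side, reads were divided by size factors from the median of ratios, and each ratio of K562/ADM to K562 was given an exact 95% interval from its reads, which covers counting error only. Names past 2-fold in either direction, with 1 outside the interval, were called. Of all names 26.8% were called, 15.6% as lower and 11.1% as higher, and of the 12 miR-30 names 0 were. The intervals of 7 of the 12 names excluded 1, against 43.8% of all names, which the high counts of the family make easy to reach. Of these 7, 5 were below 1 (background 23.9%) and 2 were above 1 (background 19.9%).

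The chromosome 8 guides were the higher ones and the others the lower ones under this scaling. MiR-30d had a ratio of 1.20 (95% interval 1.19 to 1.21) and miR-30b 1.06 (1.02 to 1.10). MiR-30e had a ratio of 0.733 (0.727 to 0.739), miR-30c 0.774 (0.750 to 0.799) and miR-30a 0.704 (0.520 to 0.946). These directions depend on the scaling: with upper-quartile factors, which raise every log2 ratio by 0.74, all of the 5' strands were above 1, with miR-30e at 1.23 and miR-30d at 2.01. MiR-30b was below 1 when the libraries were scaled by total counts (0.964), by miR-425 (0.976) or without the 14q32 miRs (0.986). Each of these intervals of miR-30b held 1. The differences between members, given below, do not depend on the scaling. In RNA from a whole culture, fewer cells with a miR and less of it per cell cannot be told apart.

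The 3' strands were lower or not resolved. MiR-30e* had a ratio of 0.536 (0.524 to 0.549) and miR-30b* 0.628 (0.452 to 0.864). These were the 2 names past 1.5-fold, both lower, while 19.5% of all names were lower by that rule. MiR-30c-1* had a ratio of 0.781 (0.566 to 1.07), miR-30d* 0.915 (0.653 to 1.28) and miR-30a* 1.10 (0.396 to 3.02), each with an interval that held 1, so that a difference was not detectable at this depth. Of the 11 names with reads in both libraries, 8 were below 1 with the main scaling and 1, miR-30e*, was below 1 with upper-quartile factors, at 0.898. The median log2 ratio of the 11 names was -0.36, beside 0 over the 709 names with reads in both libraries, which the scaling sets to 0.

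**Figure D2:**
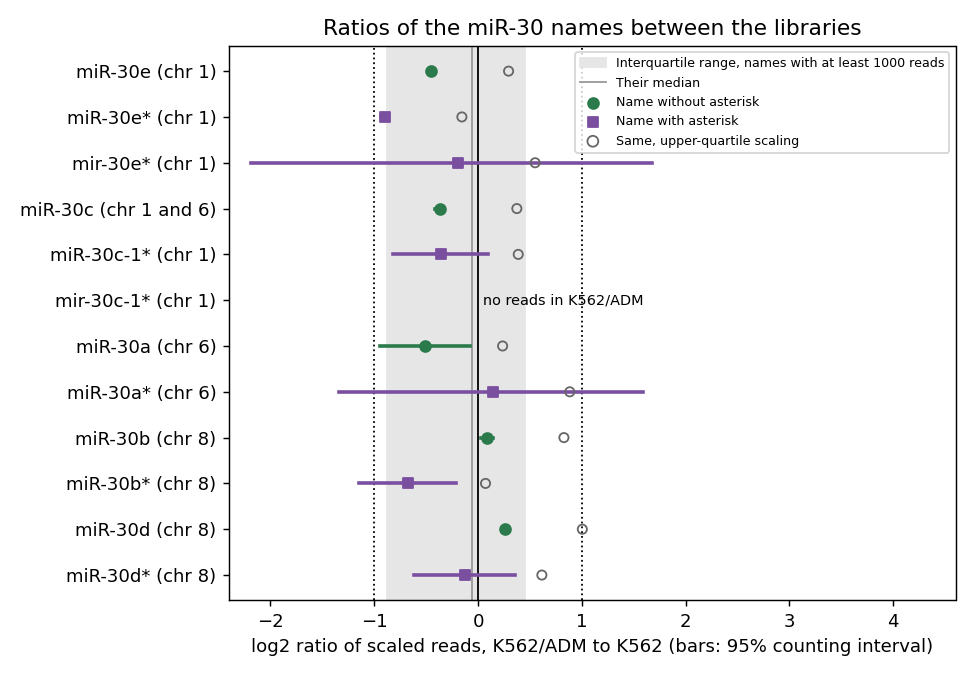
Log2 ratio of scaled reads of K562/ADM to K562 (x axis) for each miR-30 name (y axis), with circles for names without an asterisk, squares for names with one and bars for 95% counting intervals. The grey band is the interquartile range of the 169 names with at least 1000 reads, the dotted lines mark 2-fold and the open circles show the same ratios with upper-quartile factors. All filled points lie within 2-fold, and the shift to the open circles moves most names across 0.

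Summed over all 12 names, the family had 290145 and 210703 reads, or 3.78% (3.77 to 3.79) and 3.06% (3.04 to 3.07) of the reads of each library. MiR-378 alone had 7545078 reads over both libraries together, so that these shares depend strongly on it. The ratio of the family after scaling was 0.889 (0.884 to 0.894), and it was 1.49 with upper-quartile factors. For the 5' strands alone, which carry the seed, it was 0.919 (0.914 to 0.925). Among the 164 other names with at least 1000 reads, those whose log2 ratio lay nearest to that of the whole family (-0.17) were miR-223 at -0.17, miR-182 at -0.16 and miR-140-3p at -0.21. With 2 libraries the ratio is the only measure of likeness there is.

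The make-up of the family pool needs no scaling, since both its parts come from the same library. In K562 miR-30e held 55.8% (95% interval 55.6 to 56.0, Clopper-Pearson) of the reads of the 5' strands and miR-30d 38.2% (38.03 to 38.40). In K562/ADM miR-30e held 44.5% (44.2 to 44.7) and miR-30d 49.8% (49.6 to 50.1). The share of miR-30e thus differed by -11.3 percentage points and that of miR-30d by 11.6 points. MiR-30c held 3.81% and 3.21%, miR-30b 2.14% and 2.47%, and miR-30a 0.0475% and 0.0364%. The leading miR of the pool was a chromosome 1 product in K562 and a chromosome 8 product in K562/ADM.

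**Figure D3:**
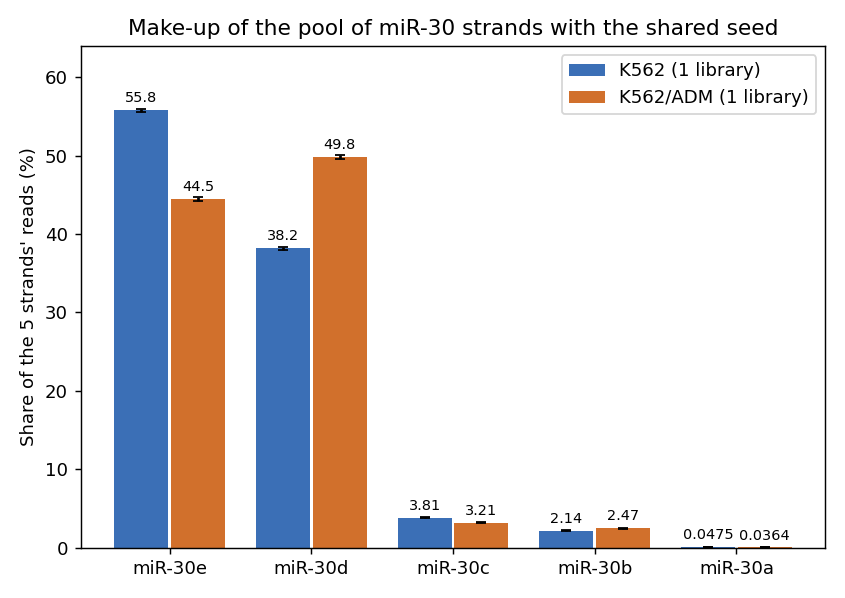
Share of each member in the reads of the 5 miR-30 5' strands (y axis, %) in K562 (left bars) and K562/ADM (right bars), with 95% counting intervals as error bars. MiR-30e leads in K562 with 55.8% and miR-30d in K562/ADM with 49.8%.

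Paralogs were then compared pair by pair, as the change in their read ratio from K562 to K562/ADM, which is likewise free of scaling. There were 10 pairs of 5' strands, and the counting intervals of 8 excluded 1. The ratio of miR-30d to miR-30e was 0.685 in K562 and 1.12 in K562/ADM, a change of 1.64-fold (1.62 to 1.66). In each of the 6 pairs that set a chromosome 8 miR against one from chromosome 1 or 6, the chromosome 8 miR gained in K562/ADM, and all 6 intervals excluded 1. The changes ran from 1.37-fold (1.30 to 1.44) for miR-30b to miR-30c up to 1.70-fold (1.27 to 2.30) for miR-30d to miR-30a. The 6 pairs share members and are not independent of each other. With chromosomes 1 and 6 put on one side, their common direction follows from the order of the ratios above and is not a separate result.

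Pairs from the same side changed less. The ratio of miR-30c to miR-30e changed by 1.06-fold (1.02 to 1.09). The hairpins of this pair are neighbours in NFYC, but part of miR-30c may come from chromosome 6. The chromosome 8 neighbours miR-30b and miR-30d changed by 0.884-fold (0.850 to 0.920), so that miR-30b gained less than miR-30d. For miR-30a to miR-30e the change was 0.961-fold (0.710 to 1.29) and for miR-30a to miR-30c 0.909-fold (0.671 to 1.22), and both intervals held 1.

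**Figure D4:**
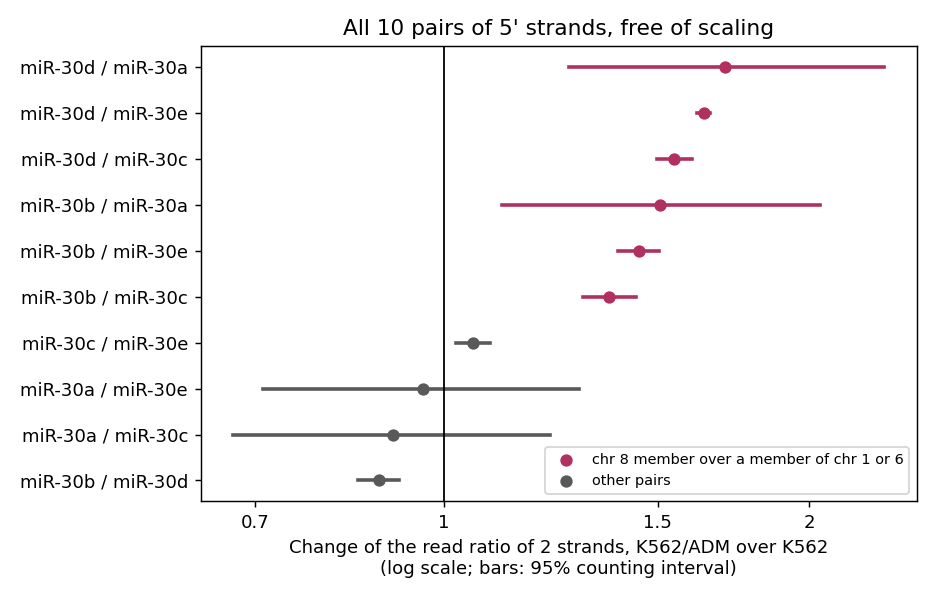
Change of the read ratio of 2 miR-30 5' strands from K562 to K562/ADM (x axis, log scale) for all 10 pairs (y axis), with 95% counting intervals as bars. The 6 pairs of a chromosome 8 member over a member from chromosome 1 or 6 lie from 1.37 to 1.70, and the other 4 lie from 0.884 to 1.06.

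MiR-30a needs a caution. Its reads were 0.852 per 1000 reads of miR-30e in K562 and 0.819 in K562/ADM, and these miRs differ by a single base. Per 1000 reads of miR-30d, the reads of miR-30a were 1.24 in K562 and 0.730 in K562/ADM. How many bases separate miR-30a from miR-30d could not be counted, as the sequence of miR-30d was not held. MiR-30a* stood at 0.442 and 0.908 per 1000 reads of miR-30e*, which also differs from it by a single base. The authors mapped with the default settings of miRanalyzer, and the methods give no number of mismatches that these allow. Whether reads of miR-30e or miR-30d were counted as miR-30a was not tested. The values of miR-30a are therefore uncertain, as are the pairs it enters.

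The 3' strands gave a partly different picture, on far fewer reads. The ratio of miR-30d* to miR-30e* changed by 1.71-fold (1.22 to 2.38), close to the 1.64-fold of the 5' strands of the same hairpins. Of the 6 pairs of 3' strands that set chromosome 8 against the others, however, 3 were above 1, and miR-30d* to miR-30e* alone had an interval that excluded 1. Within chromosome 1, miR-30c-1* gained on miR-30e* by 1.46-fold (lower bound 1.05), whereas miR-30c and miR-30e changed nearly alike. In all, 2 of the 10 pairs of 3' strands had an interval that excluded 1.

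Use of the strands of a hairpin differed widely among paralogs. The 3' strand took 13.2% (95% interval 13.0 to 13.3) of the reads of both strands of miR-30e in K562 and 10.0% (9.82 to 10.2) in K562/ADM. At the other end, miR-30d* took 0.0851% (0.0682 to 0.105) and 0.0650% (0.0502 to 0.0828) of the reads of its hairpin. The 3' strand took 2.003% and 1.20% for miR-30b, 7.30% and 11.0% for miR-30a and, with miR-30c-1* set against all of miR-30c, 1.02% and 1.03%. The order of the hairpins by this share was the same in both libraries but for miR-30e and miR-30a. MiR-30a had the lower share in K562 and the higher one in K562/ADM, where the intervals of the pair overlap.

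Between the libraries, strand use differed beyond counting error for 2 of the 5 hairpins, both with the 3' strand lower. The background was 102 pairs of a name with an asterisk and its partner without one, with reads of both in both libraries. These pairs held the miR-30 hairpins but not those whose strands are named by arm. Some names without an asterisk entered more than 1 pair. By the same rule strand use differed for 43.1% of these pairs, with the asterisk strand lower in 30.4%. Of the 63 pairs with at least 50 reads on each strand, it differed for 60.3% (asterisk strand lower in 42.9%). Whether the asterisk strand is the 3' strand was not looked up for hairpins outside miR-30. The odds of the 3' against the 5' strand of miR-30e were 0.732 times (95% interval 0.714 to 0.751) as high in K562/ADM as in K562. For miR-30b they were 0.592 times as high (0.426 to 0.818), on 117 and 60 reads of the 3' strand. The intervals of miR-30d (0.763, 0.545 to 1.06), miR-30c (1.01, 0.730 to 1.39) and miR-30a (1.56, 0.535 to 4.50) held 1. Other pairs moved as much. The 59 pairs outside miR-30 with at least 50 reads on each strand had a median log2 odds ratio, asterisk against partner, of -0.21. Their interquartile range was from -0.76 to 0.32, and 23 lay below miR-30e at -0.45 and 16 below miR-30b at -0.76. Of the 17 others with at least 1000 reads on each strand, 8 lay below miR-30e. The interval excluded 1 for 16 of these 17 (94.1%), so that at the depth of miR-30e nearly every pair passed that rule.

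**Figure D5:**
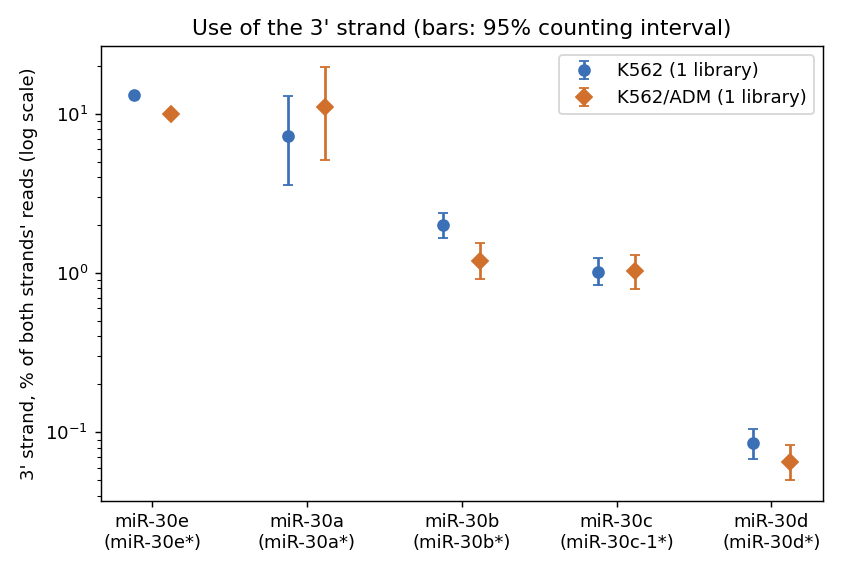
Share of the 3' strand in the reads of both strands of each miR-30 hairpin (y axis, %, log scale) in K562 (circles) and K562/ADM (diamonds), with 95% counting intervals. The shares run from 0.0650% for miR-30d to 13.2% for miR-30e, and the intervals of the libraries are apart for miR-30e and miR-30b.

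Beside other families that share a seed, the members of miR-30 stood close together. The log2 ratios of the 5' strands spanned 0.77, from -0.51 for miR-30a to 0.26 for miR-30d, which ranked 11 among 14 families with at least 2 members of 50 reads. The 6 other families with at least 4 such members all spanned more, with let-7/98 at 0.83 over 6 members and miR-181 at 3.91 over 4. These are descriptions without a test, and the span grows with the number of members and falls with their depth. In contrast, the shift inside the miR-30 pool was not small: 11.9 percentage points went from some members to others, which ranked 5 among the 14. Points moved and a change of leader also depend on how evenly a pool is split. The miR-146 family, for example, moved 0.209 points with a span of 2.63. Of the 13 other families 1 changed its leading member, miR-181 with 451 and 402 reads, whereas the miR-30 pool held rank 3 by reads in K562 and rank 2 in K562/ADM.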

How the data were processed

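Small RNA of 1 library of K562 and 1 of K562/ADM was sequenced as 36-base reads. The authors grouped reads into unique sequences, left out those seen once and used Bowtie within miRanalyzer, at default settings, to map the remainder against miRBase 16. Per the submitters' processing notes, CASAVA 1.7.0 and the build hg18 were also used. The deposited signal is the read count of a name divided by a size factor from DESeq. The authors' fold changes and p-values were not used.

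The smallest value above 0 in a column was taken as 1 read. Division by it gave whole numbers, within 0.001, for 100% of the values. The methods do not explain how a name can have 1 read when sequences seen once were left out. Intervals are exact, for 95%: Clopper-Pearson for shares and ratios, conditional for odds ratios. They cover counting error only, as PCR copies are not independent molecules. With 1 library per line no count model could be fitted and no p-value was computed. The members, lists and comparisons were chosen with earlier results of these data known. Every miR-30 name is reported. Other miRs named are the 3 with the nearest ratio, families for comparison, markers and miRs used for scaling. Alternatives were other scalings (TMM, equal miR-425 reads, upper quartile, total counts with and without miR-378, and size factors that leave out 14q32), call rules, read minimums, 1 added to values and other choices of strands. The intervals were tested on simulated counts that held counting error only, with a known scaling. Such counts cannot show how the intervals behave when libraries differ in other ways. Scaling factors by TMM and upper quartile came from edgeR 4.0.16 in R 4.3.3. All else was done in Python 3.11.15 with scipy 1.17.1, numpy 2.4.6 and pandas 2.3.3, and figures with matplotlib 3.10.9.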

Additional observations from a re-analysis of the deposited data

How the results depend on the processing

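The pooled ratio of the family, 0.889, was 0.809 with total counts, 0.851 with total counts without miR-378, 0.827 with the median of ratios without 14q32, 0.819 with equal miR-425 reads, 0.891 with TMM and 1.49 with upper-quartile factors. It was 0.919 for the 5' strands and 0.774 as their median. Of the 12 names 0 were called, against 1 with total counts, without 14q32 and with miR-425 (miR-30e*, lower) and 1 with upper-quartile factors (miR-30d, higher), and 2 at 1.5-fold. Over all names, 250 were called, 165 when the whole interval had to pass 2-fold and 166 with at least 50 reads, and upper-quartile factors put 70.1% of the called names on the higher side in place of 41.6%. With every row in the pool, the share of miR-30e differed by -9.05 points and that of miR-30d by 12.2, and without miR-30e in the pool that of miR-30d differed by 3.28. On the 3' strands the change of miR-30e to miR-30d was 0.586-fold (0.611 on the 5' strands). The change of miR-30a to miR-30e was 2.05-fold (0.739 to 5.63) in place of 0.961 (0.710 to 1.29), and both intervals held 1. That of miR-30a to miR-30d was 1.20-fold (0.407 to 3.51) in place of 0.587, so that its direction was the other way. Both of these 3' values rest on 10 and 9 reads of miR-30a*. The cause was not tested. Strand use still differed for 2 hairpins with 1 read added and with either read minimum. The span of the family ranked 12 among 16 families with a minimum of 10 reads and 13 among 17 with none. Dividing miR-30c between its loci by their 3' strands was not run, since miR-30c-2* was not among the names in the table. Leaving out a replicate was not possible with 1 library per line. No paired analysis was possible because each group had 1 library.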
